A study of Rattus norvegicus with 15 samples.

Results

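Cadherins and protocadherins were taken as all genes of the deposited tables whose symbol is Cdh followed by a number, or begins with Pcdh, with Cdh1, Cdh2 and Cdh5 left aside. This gave 65 of the 17055 genes listed: 16 cadherins, 10 protocadherins outside the gene clusters, and 15, 11 and 13 genes of the alpha, beta and gamma protocadherin clusters. The genes were measured in islet cells of Sprague-Dawley rats aged 10 days, dispersed and transfected with a control microRNA mimic or with a mimic of miR-17-5p, which are the only treatments. Poly(A) RNA was sequenced in 3 control and 5 miR-17-5p libraries (mRNA libraries). RNA pulled down with Ago2, the Argonaute protein onto which microRNAs are loaded to form the RNA-induced silencing complex, was sequenced in 3 control and 4 miR-17-5p libraries (RISC libraries). Every library came from cells handled in culture and transfected, so no group held untransfected cells, and the number of animals behind a library is not given in the sources used here.

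Cadherins are membrane proteins whose extracellular repeats bind calcium and hold neighbouring cells together, usually by binding the same cadherin on the facing cell. Classical and type II cadherins connect through catenins to the actin cytoskeleton, and E-cadherin and N-cadherin are the forms best known from islet endocrine cells. Protocadherins lack the catenin-binding tail, and the clustered ones are chosen in combinations from tandem arrays of variable exons, which in the alpha and gamma clusters are spliced to shared constant exons.

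The mimic adds a microRNA that belongs to a family defined by its seed, bases 2 to 8 from the 5′ end, which pairs with target transcripts. The mature sequences in RefSeq (GRCr8 table) that carry the seed of miR-17-5p are shown because this seed is what the treated cells received. The RISC libraries hold RNA pulled down with Ago2. The sequence of the mimic itself is not given in the sources used here. Capitals mark the seed, 5′ to 3′.
rno-miR-17-5p: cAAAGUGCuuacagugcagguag
rno-miR-20a-5p: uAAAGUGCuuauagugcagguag
rno-miR-20b-5p: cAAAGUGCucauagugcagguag
rno-miR-93-5p: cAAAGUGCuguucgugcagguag
rno-miR-106b-5p: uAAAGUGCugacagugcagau
These 5 microRNAs share AAAGUGC and differ after it. Target sites in cadherin transcripts were not analysed here.

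Libraries held 3379456 to 21056240 counts in mRNA and 4185123 to 13420403 in RISC. Levels are given as CPM, counts scaled to library size, with library sizes scaled by trimmed mean of M values (TMM) over all 15 libraries. CPM is not divided by gene length, so it compares libraries for a gene and not genes with each other. The control RISC libraries were sparse for these genes. Of the 34 members that reached 100 counts in any control RISC library, 29 had at most 3 counts in another library of that group. This is 85.3%, against 52.2% of all genes that reached 100 counts there. In miR-17-5p RISC libraries the share was 7 of 29 members (24.1%), against 11.4% of all such genes. In mRNA libraries it was 0 of 9 members in control, against 0.171% of such genes. With miR-17-5p it was 1 of 16 members (6.25%), against 0.694% of such genes.

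Between 45 and 55 of the 65 members had a count in control mRNA libraries, and 33 to 59 in miR-17-5p mRNA libraries. These are 69.2% to 84.6% and 50.8% to 90.8% of members, where 65.4% to 73.7% and 65.3% to 76.2% of all genes had a count. In RISC libraries 12 to 32 members had a count in control and 34 to 51 with miR-17-5p. These are 18.5% to 49.2% and 52.3% to 78.5% of members. Of all genes 32.8% to 43.5% had a count in control RISC libraries and 53% to 63% with miR-17-5p, so all genes were detected less in control RISC. Several cadherins known from other tissues were at or near 0. Cdh7, Cdh9 and Cdh16, of which the last is the kidney-specific cadherin, had no count in any library. Cdh10 had counts in 1 library, at 0.192 CPM. Muscle cadherin Cdh15, intestinal cadherin Cdh17 and Cdh19, Cdh20 and Cdh26 did not exceed 1.38 CPM in any mRNA library, and in RISC libraries the highest of their values was 5.24 CPM, for Cdh19.

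**Figure D1:**
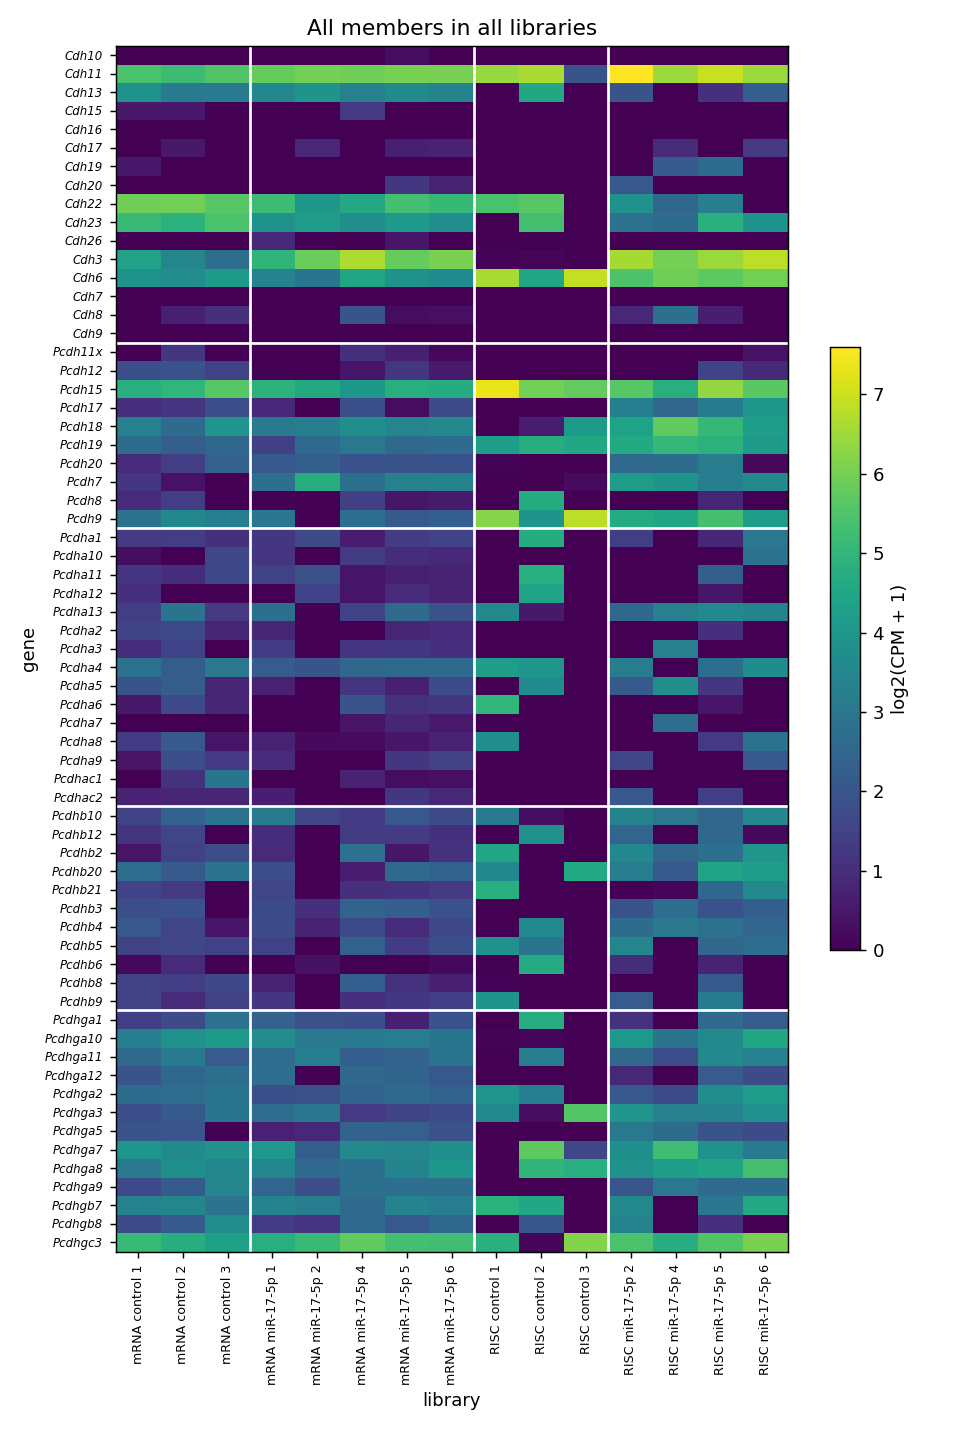
Level of each of the 65 genes (rows, symbols on the vertical axis) in each of the 15 libraries (columns), as log2(CPM + 1) by colour, with white lines between groups of libraries and between families in the order cadherins, non-clustered protocadherins, alpha, beta and gamma clusters. The control RISC columns have the most dark cells, with 12 to 32 members holding a count, where 32.8% to 43.5% of all genes did. Genes in these columns, clustered ones and others such as Cdh23, are often bright in 1 library and dark in another.

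The mRNA libraries were compared first, to see what the added miR-17-5p did to transcript levels. P-cadherin (Cdh3), protocadherin 7 and cadherin 11 rose, and cadherin 23 fell. Of 42 members tested 3 rose, which is 7.14% where 3.11% of all 11077 tested genes rose, and 1 fell, which is 2.38% where 0.767% of all genes fell. In either direction this made 9.52% of the members and 3.87% of all genes. The median log2 fold change was -0.18 over the 42 members and 0.01 over all genes, with 14 members above 0 and 28 below. The members' median moved to -0.31 when control replicate 1 was dropped and to -0.04 when treated replicate 2 was. At an unadjusted p under 0.05 there were 8 members. The largest p of these, for Pcdh15, ranked 2059 among all 11077 genes.

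Cdh3 encodes P-cadherin, a classical cadherin of epithelia such as the basal layer of skin and the placenta. Its level was 19.7, 10 and 5.69 CPM in control mRNA libraries 1, 2 and 3, and 30.2, 58.3, 101, 55 and 66.5 CPM in miR-17-5p libraries 1, 2, 4, 5 and 6. All 5 treated libraries lay above all 3 controls, and within each group the highest library was over 3 times the lowest. The log2 fold change was 2.32 ± 0.43 (standard error), and edgeR gave an adjusted p of 0.0140 over all genes tested.

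Protocadherin 7 is a delta protocadherin with a long cytoplasmic tail, first described in brain and heart. Pcdh7 was at 1.31, 0.29 and 0 CPM in the control libraries and at 5.98, 25.3, 6.02, 8.84 and 9.08 CPM with miR-17-5p. The groups did not overlap, and miR-17-5p library 2 stood far above the other treated libraries. Its log2 fold change was 4.03 ± 0.77 (edgeR adjusted p = 0.0119), from 14 control counts in all.

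Cdh11, a type II cadherin of mesenchymal cells and osteoblasts, was at 41.7, 35.9 and 45.6 CPM in control and at 54.7, 63.1, 61.2, 64.6 and 64.4 CPM in treated libraries. The groups did not overlap and the difference was small, with a log2 fold change of 0.59 ± 0.15 (edgeR adjusted p = 0.0457). Cdh23, a long cadherin that forms the upper part of the tip link of inner ear hair cells, was at 34.6, 28.1 and 42.3 CPM in control. With miR-17-5p it was at 13.9, 17.2, 12.7, 16.3 and 12.3 CPM, each below every control. It had the smallest p of the members, with a log2 fold change of -1.26 ± 0.21 (edgeR adjusted p = 0.0066).

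Calls for these 4 genes depended on the control libraries. Without control replicate 2 the adjusted p was 0.0865 for Cdh3, 0.0849 for Pcdh7 and 0.199 for Cdh11, and without control replicate 3 it was 0.0716, 0.0664, 0.0797 and, for Cdh23, 0.0548. Cdh11 also missed the threshold without control replicate 1 (0.101), and without treated replicates 4, 5 and 6 (0.0951, 0.102 and 0.106).

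Closest to the threshold without passing was Cdh22, a type II cadherin of pituitary and brain. It was at 60.6, 61.6 and 48.4 CPM in control and at 35.9, 15.2, 23.2, 38.8 and 33.3 CPM with miR-17-5p. Every treated library was below every control, and the value was -0.96 ± 0.25 (edgeR adjusted p = 0.0539). Without miR-17-5p replicate 1 or 2 it passed (adjusted p = 0.0370 and 0.0317).

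Pcdh12, an endothelial protocadherin also called VE-cadherin-2, was at 2.63, 2.75 and 1.78 CPM in control and at 0, 0, 0.344, 1.35 and 0.466 CPM with miR-17-5p. The groups did not overlap, but counts were few and the log2 fold change of -2.59 ± 1.16 did not pass (edgeR adjusted p = 0.244). Pcdh15, the protocadherin that binds Cdh23 in the tip link, had a value of -0.54 ± 0.25 (edgeR adjusted p = 0.258). Its levels of 26.8, 30.7 and 48.4 CPM in control and 15.3 to 29.2 CPM with miR-17-5p overlapped.

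Among tested members 3 lay wholly above control (Cdh3, Pcdh7 and Cdh11), 7.14% against 8.41% of all genes, and 4 wholly below (Cdh22, Cdh23, Pcdh12 and Pcdhga2), 9.52% against 6.64% of all genes. These shares are near those of all genes.

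**Figure D2:**
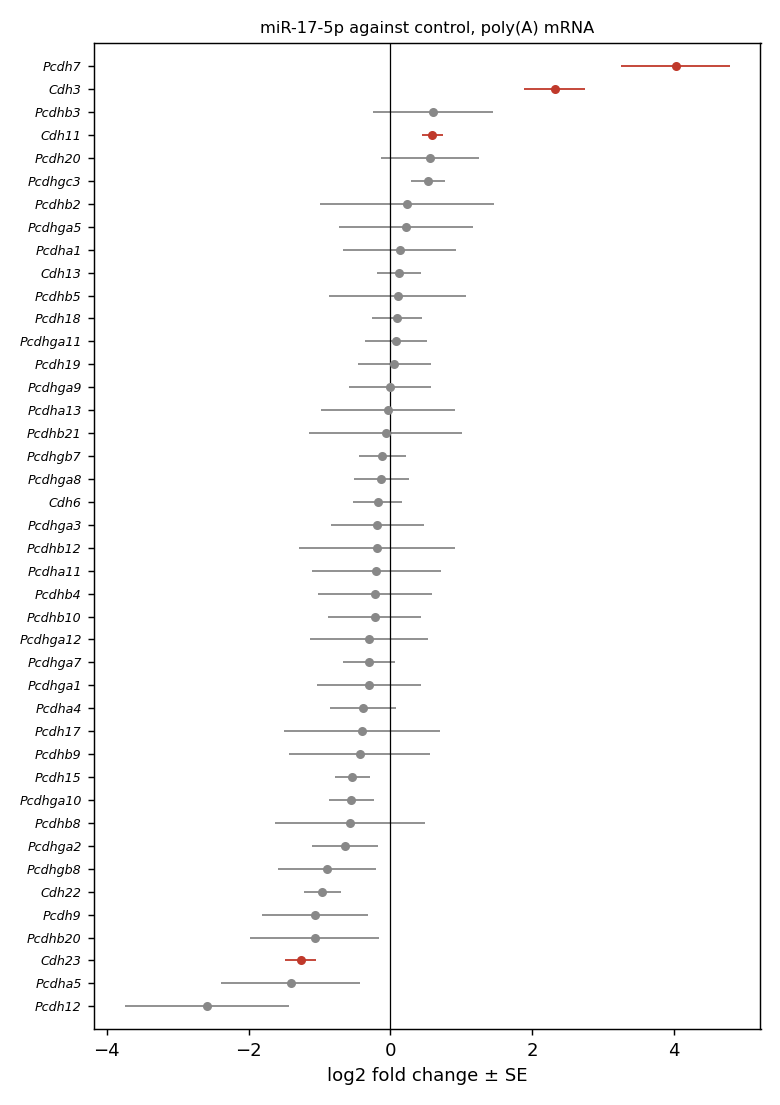
Log2 fold change of miR-17-5p against control in mRNA libraries (horizontal axis) for the 42 tested genes (vertical axis, ordered by value), with bars of 1 standard error. Red marks the 4 genes with an edgeR adjusted p under 0.05: Pcdh7 at 4.03, Cdh3 at 2.32, Cdh11 at 0.59 and Cdh23 at -1.26.

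Clustered protocadherins did not pass in this comparison in either direction. Pcdhgc3, a C-type gamma protocadherin, had the smallest p of them. It was at 33.7, 25.4 and 18.9 CPM in control and at 26.9, 33.7, 52.3, 39.2 and 37.7 CPM with miR-17-5p, so the groups overlapped (0.53 ± 0.24, edgeR adjusted p = 0.257). Of the 13 gamma genes 3 had values above 0 and 10 below, of the 10 tested beta genes 3 and 7, and of the 5 tested alpha genes 1 and 4. Their median log2 fold changes were -0.18, -0.20 and -0.20, and 1 clustered gene, Pcdhgc3, had an unadjusted p under 0.05. The summed level of the gamma genes was 107 ± 8.33 CPM in control and 105 ± 12 CPM with miR-17-5p (SD, n = 3 and 5). For the beta genes it was 22 ± 0.953 and 18.5 ± 8.5 CPM, and for the alpha genes 25.5 ± 4.96 and 17.7 ± 5.08 CPM. In miR-17-5p mRNA library 2 the beta sum was 4.06 CPM and the alpha sum 9.88 CPM, the lowest of the 8 mRNA libraries. That library also had the fewest members with a count, 33 or 50.8%, where 65.3% of all genes had a count.

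Over all 65 members the summed level was 391 ± 20.6 CPM in control mRNA and 393 ± 43.2 CPM after the miR-17-5p mimic (SD, n = 3 and 5). Cadherins made up 170 ± 14.2 and 193 ± 29.3 CPM of this, and non-clustered protocadherins 66.1 ± 16.4 and 59.5 ± 4.41 CPM. Group ranges overlapped for each of these sums.

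**Figure D3:**
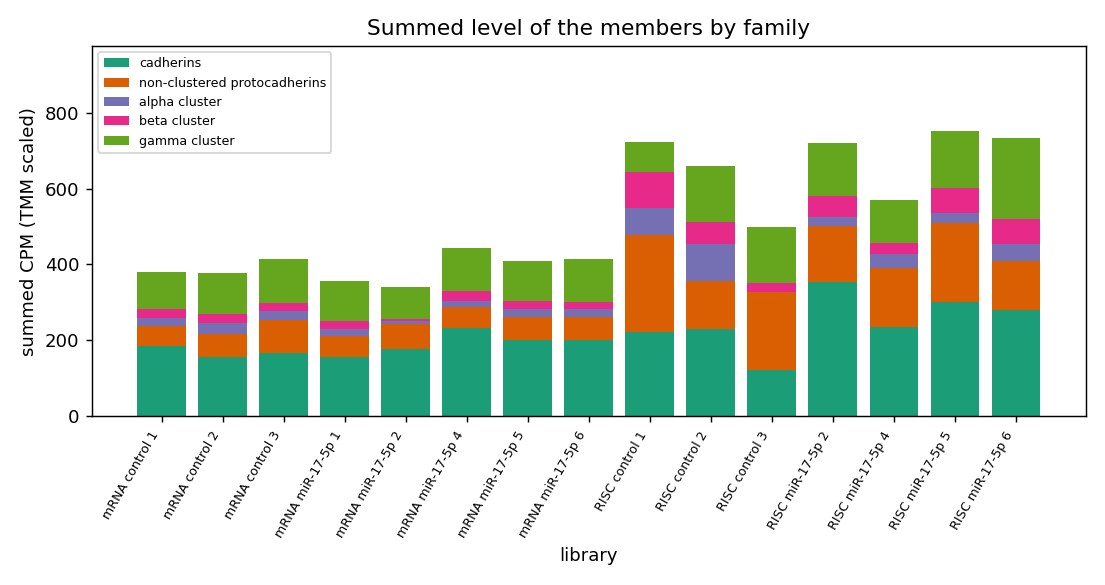
Summed CPM (TMM scaled, vertical axis) of the members in each library (horizontal axis), stacked by family in 5 colours. Sums lay between 340 and 444 CPM in mRNA libraries and between 498 and 751 CPM in RISC libraries, and the alpha part was 0 in control RISC library 3.

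Markers of other cell types were read in the same libraries, since whole islet preparations hold them. Markers of stellate cells and fibroblasts moved with Cdh3, Pcdh7 and Cdh11: 9 of 14 tested rose and 0 fell by edgeR. The 15 markers summed to 11148, 13806 and 19896 CPM in the control mRNA libraries (lowest, median and highest) and to 21550, 36693 and 47103 CPM in the miR-17-5p ones. Col1a2 was at 0 in every library. Their part in the results for Cdh3, Pcdh7 and Cdh11 was not tested. A change in the number of cells of a type and a change in RNA per cell cannot be told apart in these bulk samples.

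Of 11 tested endothelial markers 0 rose and 1 fell by edgeR, the receptor gene Kdr. The 13 endothelial markers summed to 201.8, 215.8 and 321 CPM in control and to 190.1, 236.8 and 374.3 CPM with miR-17-5p, while the tested ones had a median of -0.42 on the log2 scale, 4 of the 11 above 0 and 7 below. The sum is weighted to Eng, at 102.6 CPM in control and 165.2 CPM with miR-17-5p (means), which is one of the 4. The part of these markers in the values of Pcdh12 was not tested. Of 9 Schwann cell and neural markers 1 rose (Cryab) and 1 fell (Stmn2), 1 of 10 alpha, delta and PP cell markers fell (Pyy), and 1 of 5 duct markers fell (Epcam). Among 8 beta cell, 5 acinar and 10 macrophage and leukocyte markers tested 0 passed by edgeR. All 8 beta cell markers were below 0 on the log2 scale (median -0.41). All 10 macrophage and leukocyte markers were above 0 (median 0.90), and of the acinar ones 4 were above and 1 below. Beta cell markers summed to 298580 to 557980 CPM over the mRNA libraries, so the defining genes of the labelled tissue were abundant.

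Genes that work with cadherins were counted as 5 lists. Of 21 catenin and adherens junction genes 3 rose and 1 fell. Those were vinculin (Vcl, 1.07), which joins junctions to actin, the focal adhesion and junction protein zyxin (Zyx, 1.26) and the actin binder Lima1 (0.73), while the neural catenin gene Ctnnd2 fell by 0.82 on the log2 scale. Of 13 Fat, Dachsous, Celsr and other long cadherins 2 rose, the Fat cadherins Fat4 (1.34) and Fat1 (0.61), and 1 fell, the receptor tyrosine kinase gene Ret with its cadherin-like repeats (-0.60). List medians were 0.22 and -0.09, against 0.01 for all genes. Of 4 classical and desmosomal cadherins outside the 65 genes, VE-cadherin (Cdh5) fell, with a log2 fold change of -1.88 ± 0.36 (edgeR adjusted p = 0.0121). Among 21 genes for cadherin cleavage and protocadherin partners, and 5 Usher proteins that bind Cdh23 and Pcdh15, 0 passed by edgeR.

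E-cadherin (Cdh1), whose gene follows Cdh3 directly on the chromosome in RefSeq's GRCr8 gene order, went the other way in its values. It was at 292.4, 304.5 and 319.9 CPM in control and between 193.7 and 264.8 CPM with miR-17-5p (-0.41 ± 0.12, edgeR adjusted p = 0.0824), where Cdh3 lay above control in every library. Cdh11 directly follows Cdh5 in the same order, and those neighbours also moved apart, with Cdh5 lower and Cdh11 higher.

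The second comparison asked the same question of Ago2-bound RNA. P-cadherin was nearly absent from control RISC libraries and present in all treated ones. Of 39 members tested 1 rose, Cdh3, which is 2.56% where 0.339% of all 9443 tested genes rose, and by edgeR 0 fell, where 0.0318% of all genes fell. At an unadjusted p under 0.05 there were 8 members, and the largest p of these, for Pcdh20, ranked 913 among all 9443 genes. The next member, Pcdh9, was above that limit and ranked 2300. The number of all genes under the limit lies between these ranks and was not counted, so no share is set beside the 8 members. DESeq2's Wald test called 8 higher, where it called 12.1% of all genes higher, and 0 lower. The median log2 fold change was 0.21 over the members and 0.27 over all genes, but it was 0.72 against 0.54 without control replicate 1 and 4.14 against 0.68 without control replicate 2. Dropping treated replicate 5 gave the members a median of 0.35, and DESeq2 size factors gave 0.13.

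Cdh3 had 1, 1 and 0 counts in control RISC libraries 1, 2 and 3, and 1425, 726, 918 and 805 counts in miR-17-5p RISC libraries 2, 4, 5 and 6. In CPM these were 0.0556, 0.108 and 0 against 93.3, 63.9, 85.8 and 113. The treated RISC libraries overlapped the treated mRNA libraries, while control RISC libraries lay far below the control mRNA libraries. The ratio of pooled counts per library size was 1490, with an exact 95% interval of 412 to 12300 that covers counting error only. The edgeR adjusted p was 0.0080, the smallest p of all tested genes. It was 0.0802 without miR-17-5p replicate 2, 0.0502 without replicate 5 and 0.0518 without replicate 6.

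Pcdh7 showed the same kind of values without passing the edgeR test. It had 0, 0 and 1 counts in control RISC libraries and 261, 160, 93 and 81 with miR-17-5p, or 17.1, 14.1, 8.70 and 11.3 CPM. Its ratio was 458 (exact 95% interval 81.8 to 18100), with an adjusted p of 0.0828.

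Another 6 members were at 0 to 2 counts over the 3 control RISC libraries and higher with miR-17-5p, as Cdh3 and Pcdh7 were. Members with so few control counts could enter the test only through the treated libraries, so no other direction was open to them. How many of all genes were in the same state was not counted. Of the 6 members, 3 are gamma protocadherins of the A subfamily. Pcdhga10 had 2 control counts and 239, 75, 120 and 158 treated counts, a ratio of 228 (62.7 to 1880). Pcdhga9 and Pcdhga5 had 0 control counts, and with miR-17-5p they had 39 to 82 and 17 to 112 counts. Against a floor of 3 counts per library they were at least 16.5-fold and at least 14.1-fold higher.

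Pcdh17, a delta protocadherin of the brain, had 0 control counts and 134, 53, 83 and 108 treated counts, at least 28.4-fold higher. Pcdhb3 of the beta cluster had 0 and then 42, 64, 29 and 27 counts, at least 11.6-fold higher. Pcdh20 was uneven in the treated group, with 77, 61 and 86 counts and then 1 count in library 6, against 1 control count (ratio 173, 30.7 to 6860). These 6 genes had edgeR adjusted p values of 0.0725 to 0.0944, and 0 of them passed.

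Counted by overlap, 9 tested members lay wholly above control in RISC libraries, 23.1% where 17.6% of all genes did, and 0 lay wholly below, where 3.36% of all genes did. Beside the 8 genes above, the ninth was Pcdh18. It was at 0, 0.539 and 16.6 CPM in control and at 20, 52.8, 32 and 17.9 CPM with miR-17-5p, with an edgeR adjusted p of 0.716.

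The genes changed in mRNA did not all show such values in RISC. Cdh23 was at 0, 39.7 and 0 CPM in control RISC libraries and at 6.09, 5.37, 27 and 13.7 CPM with miR-17-5p. Cdh22 was at 41.9, 48 and 0 CPM in control and at 13.2, 4.93, 8.42 and 0 CPM with miR-17-5p. For both genes the groups overlapped and the control libraries disagreed (edgeR adjusted p = 0.999 and 0.827). Cdh23 passed without control replicate 2, its only control RISC library with counts (adjusted p = 0.0397).

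Cdh11 was at 85.5, 98.5 and 2.87 CPM in control and at 192, 88.7, 123 and 86.3 CPM with miR-17-5p (edgeR adjusted p = 0.782). Control library 3, at 2.87 CPM, was far below the other 2. EdgeR called 7 members higher when control replicate 2 was left out, 4 when treated replicate 4 was, and 0 when treated replicate 2, 5 or 6 was. Over all genes those counts were 1163, 540 and 0, in place of 32, so the members' counts moved with those of all genes.

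**Figure D4:**
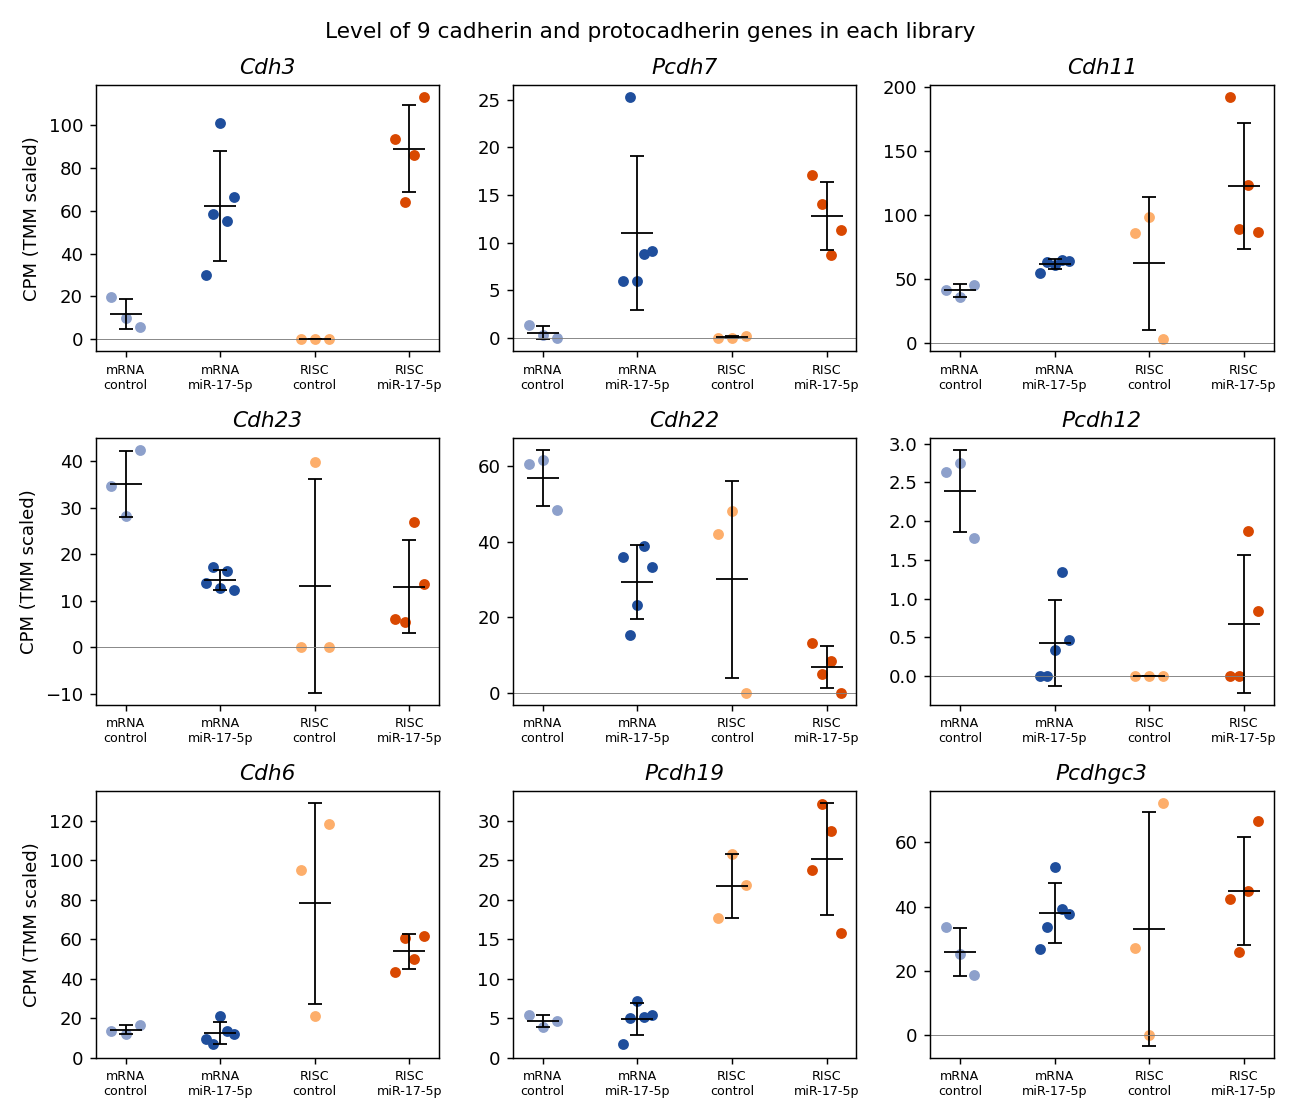
CPM (TMM scaled, vertical axis, linear) of 9 genes in the 4 groups of libraries (horizontal axis), with 1 point per library and black lines for the mean and 1 SD. Cdh3 and Pcdh7 are at or near 0 in control RISC and higher with miR-17-5p in both library types, Cdh23 and Cdh22 are lower with miR-17-5p in mRNA, and Cdh6 and Pcdh19 are higher in RISC than in mRNA.

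In the RISC libraries 5 of 13 tested stellate and fibroblast markers rose. Their sum was 4081 to 9132 CPM in control and 22216 to 25136 CPM with miR-17-5p, and its part in the value of Cdh3 was not tested. Of 7 macrophage and leukocyte markers 1 rose (Lcp1), and all 7 were above 0, with a median log2 fold change of 3.8. Of 8 beta cell markers 7 were below 0 (median -0.75), where the median of all genes was 0.27. By edgeR 0 of 8 endothelial, 5 Schwann and neural, 8 beta cell, 8 alpha, delta and PP cell and 4 duct markers passed, and no acinar marker was tested. Of the genes that work with cadherins, vinculin rose (Vcl, 1.40 ± 0.18, edgeR adjusted p = 0.0191), 1 of 21 in its list, and 0 passed in the other 4 lists.

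Whether the response to miR-17-5p differed between library types was tested in a model of all 15 libraries. By edgeR 7 of 50 tested members had a larger value in RISC than in mRNA, which is 14.0% where 13.0% of all 11418 genes had, and 0 had a smaller one, where 0.394% of all genes had. This share is near that of all genes. The 7 were Cdh3, Pcdhga10, Pcdhga9, Pcdhga5, Pcdhb3, Pcdh17 and Pcdh20, each with 0 to 2 counts over the control RISC libraries, with adjusted p values of 6.6e-05 for Cdh3 to 0.0169 for Pcdh20. Pcdh20 had an adjusted p of 0.0684 without control replicate 3, and 12 members were called without control replicate 2, where 2414 of all genes were in place of 1488. For Pcdh7 (adjusted p = 0.149), Cdh23 (0.881), Cdh22 (0.859) and Cdh11 (0.938) a difference between library types did not pass. Pcdh7 passed without control replicate 3 (0.0195) and Cdh23 without control replicate 2 (0.000192).

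The mRNA values of those 7 genes differ among themselves. Cdh3 rose in mRNA, and Pcdhga10 was at 8.64, 13.8 and 16 CPM in control mRNA and at 12.1, 7.98, 7.91, 8.27 and 6.75 CPM with miR-17-5p. Pcdhga9 was at 2.19, 3.48 and 9.96 CPM in control mRNA, and its 5 treated values of 2.57 to 6.02 CPM lay within that range. Their log2 fold changes in mRNA were -0.55 ± 0.32 (adjusted p = 0.382) and -0.01 ± 0.58 (adjusted p = 0.996). The control libraries of each type enter this comparison and those above, so the values are set side by side and not counted as further evidence.

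The next comparison set RISC against mRNA libraries in control cells, which shows transcripts relatively higher or lower in the pulled-down RNA. Holding by Ago2 cannot be told apart here from library preparation or from the sparseness of the control RISC libraries. P-cadherin and 5 protocadherins were lower in RISC, and no member was called higher. These were 6 of 36 tested members, 16.7% where 22.3% of all 10170 genes were lower, and 0 higher by edgeR, where 5.96% of all genes were. At an unadjusted p under 0.05 there were 9 members, and the largest p of these, for Pcdh19, ranked 3494 among all 10170 genes. DESeq2's Wald test called 3 higher, where it called 9.61% of all genes higher. The members' median was 0.63 against -0.69 for all genes, with 23 members above 0 and 13 below. That median rested on the libraries and the filter: it was 0.11 without control replicate 2, and -0.11 over the 58 members tested with no filter on low counts.

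Cdh3, at 5.69 to 19.7 CPM in control mRNA, had 265 counts there and 2 in control RISC, a ratio of 235 (exact 95% interval 64.4 to 1950). Pcdhga10 had 219 and 2 counts, a ratio of 194 (53.1 to 1610), and Pcdhb8 of the beta cluster 33 and 1, a ratio of 58.5 (9.80 to 2380). The other 3 had no count in control RISC libraries. All 6 genes could enter this test only through the mRNA libraries, so no other direction was open to them. Pcdhga9 was at least 16.1-fold, Pcdhga12 at least 14.0-fold and Pcdh12 at least 7.37-fold lower than in mRNA. The 6 genes had edgeR adjusted p values of 0.0079 to 0.0134. Without control replicate 1 the value was 0.0619 for Cdh3, Pcdhga10, Pcdhga12 and Pcdhga9. In that fit 0 of all genes were called higher and 0 lower, and Pcdh12 and Pcdhb8 were not among the genes tested. Without control replicate 2 the adjusted p was 0.0640 for Pcdhga9.

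Several members were higher in control RISC than in control mRNA in their values without passing. Cdh6, a type II cadherin known from kidney, was at 13.6, 12.2 and 16.7 CPM in mRNA and at 95.1, 21.1 and 118 CPM in RISC. Pcdh9, a delta protocadherin of the nervous system, was at 6.13, 10.6 and 8.54 CPM in mRNA and at 73.2, 14.1 and 114 CPM in RISC. Both were lowest in RISC library 2 and still above every mRNA library (2.47 ± 0.76 and 3.00 ± 0.92, edgeR adjusted p = 0.0645 for each). Without control replicate 2 both passed (0.0472).

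Pcdh19, a delta protocadherin whose human gene is known from epilepsy, was more even, at 5.47, 3.91 and 4.63 CPM in mRNA and at 17.7, 25.8 and 21.8 CPM in RISC (2.22 ± 0.89, adjusted p = 0.139). Pcdh15 was at 163, 62.1 and 53.3 CPM in RISC, above its mRNA values of 26.8 to 48.4 CPM (1.40 ± 0.58, adjusted p = 0.159). With these 4 genes, 11.1% of tested members lay wholly above mRNA where 12.0% of all genes did. Wholly below lay 7 members, 19.4% where 39.9% of all genes did.

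In miR-17-5p cells 9 members were higher in RISC than in mRNA libraries. They were 9 of 40 tested members, 22.5% where 21.7% of all 10871 genes were higher, and 0 were lower by edgeR, where 21.8% of all genes were, so that 43.5% of all genes passed in either direction. At an unadjusted p under 0.05 there were 15 members, and the largest p of these, for Pcdhb2, ranked 5456 among all 10871 genes. DESeq2's Wald test called 2 lower, where it called 27.6% of all genes lower. The members' median was 1.09 against -0.15 for all genes, and 36 of 40 values were above 0 (34 with DESeq2 size factors).

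Cdh6 had the smallest p, at 9.32, 6.77, 21, 13.5 and 12 CPM in mRNA and at 43.3, 60.4, 50.1 and 61.5 CPM in RISC. The RISC libraries lay close together and well above every mRNA library, with a log2 difference of 2.27 ± 0.31 (edgeR adjusted p = 1.4e-04). Pcdh19 was at 1.70, 5.01, 7.22, 5.19 and 5.36 CPM in mRNA and at 23.8, 32.1, 28.7 and 15.8 CPM in RISC (2.53 ± 0.46, adjusted p = 8.9e-04). In both library types the range of Pcdh19 with miR-17-5p took in its whole control range.

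Pcdh18, another delta protocadherin, was at 7.93 to 12.7 CPM in mRNA and at 20, 52.8, 32 and 17.9 CPM in RISC (1.78 ± 0.37, adjusted p = 0.0021). Cdh11 was at 54.7 to 64.6 CPM in mRNA and at 86.3 to 192 CPM in RISC (1.17 ± 0.24, adjusted p = 0.0021). Neither gene overlapped between library types. Pcdh9 was at 6.86, 0, 5.68, 3.46 and 3.84 CPM in mRNA, and its RISC libraries were at 24.5, 21.2, 39.6 and 18.1 CPM (2.88 ± 0.79, adjusted p = 0.0118).

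Pcdh15 was at 15.3 to 29.2 CPM in mRNA and at 47.7, 26.7, 80.5 and 49.6 CPM in RISC, overlapping in 1 RISC library (1.28 ± 0.32, adjusted p = 0.0074). The others called were Pcdhga8 (1.47 ± 0.44), Pcdhga3 (1.83 ± 0.64) and Pcdh17 (3.08 ± 1.07), with adjusted p values of 0.0181 to 0.0362. Cdh3 did not pass here, at 30.2 to 101 CPM in mRNA and 63.9 to 113 CPM in RISC (0.68 ± 0.30, adjusted p = 0.0866), whereas in control cells it was among the members lower in RISC.

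Cdh22 and the GPI-anchored cadherin Cdh13 went the other way, wholly below mRNA in the treated RISC libraries, without passing (-1.94 ± 0.83 and -2.34 ± 0.99, edgeR adjusted p = 0.0796 and 0.0765). Cdh22 passed without miR-17-5p replicate 6 (0.0410), and Cdh13, like Cdh3, without replicate 4 (0.0285 and 0.0083). They are 5% of tested members, where 28.6% of all genes lay wholly below. Wholly above lay 8 members, 20% where 16.3% of all genes did. Without miR-17-5p replicate 5 the number called higher by edgeR was 4, where 1784 of all genes were in place of 2361. Pcdh15, Pcdh9, Pcdhga8, Pcdhga3 and Pcdh17 then had adjusted p values of 0.0531, 0.0982, 0.0668, 0.111 and 0.116. Pcdh17 also missed the threshold without replicate 1 (0.0813) or 6 (0.0910), and Pcdhga3 without replicate 6 (0.114).

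**Figure D5:**
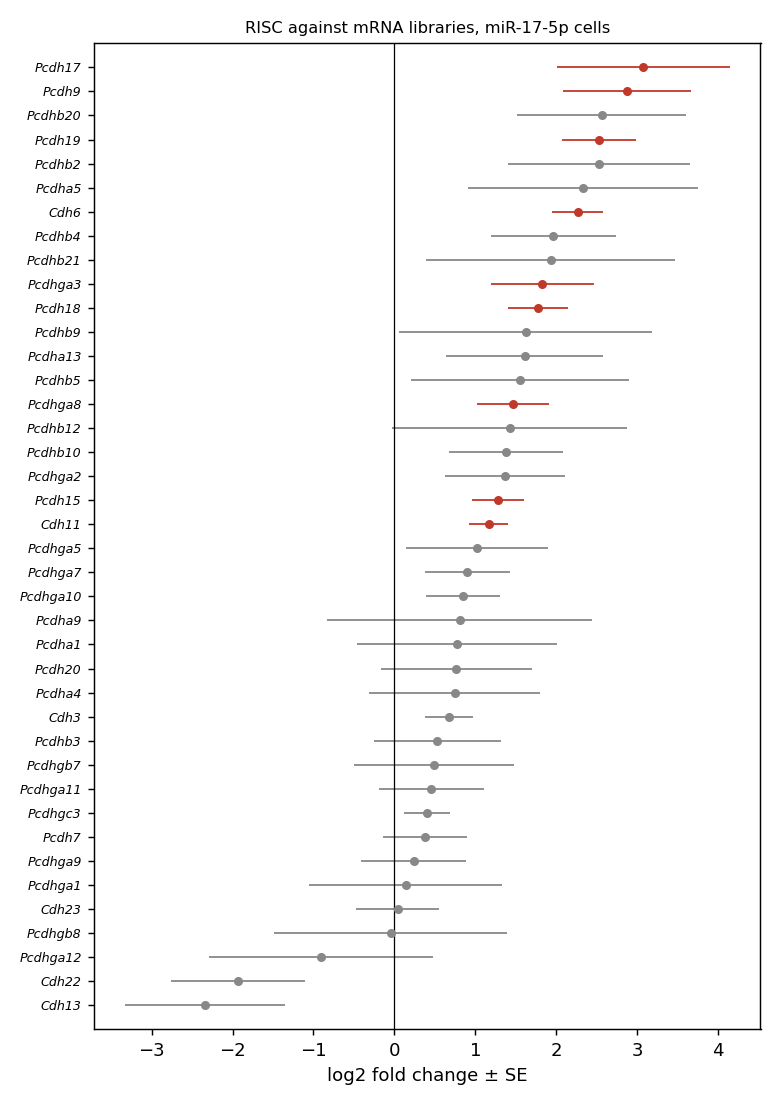
Log2 difference of RISC against mRNA libraries in miR-17-5p cells (horizontal axis) for the 40 tested genes (vertical axis, ordered by value), with bars of 1 standard error. Red marks the 9 genes with an edgeR adjusted p under 0.05, all above 0, and 36 of the 40 values lie above 0.

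By family, and beside the 21.7% of all genes that were higher here, non-clustered protocadherins held 5 of the 9 called genes and all 7 tested were above 0, with a median of 1.78. The 9 tested beta genes were also above 0, between 0.53 and 2.56, as were the 5 tested alpha genes, between 0.74 and 2.33, and by edgeR 0 of these 14 passed. Of 13 gamma genes 11 were above 0 and 2 passed. Cadherins were divided, with 4 above 0 and 2 below.

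Of the lists of related genes in miR-17-5p cells, 12 of 21 catenin and adherens junction genes, 5 of 13 Fat, Dachsous, Celsr and other long cadherins, 3 of 5 classical and desmosomal cadherins (Dsc2, Cdh1 and Cdh2) and 11 of 21 processing and partner genes were higher in RISC, where 21.7% of all genes were higher and 21.8% lower. Lower in RISC were 2 processing genes, Psenen and Aph1a, both subunits of gamma-secretase, and of 5 Usher genes 1 was higher and 2 were lower. In control cells, where 5.96% of all genes were higher and 22.3% lower, 0 of 20 catenin genes passed by edgeR, 2 of 10 long cadherins (Fat1 and Ret) and 2 of 4 classical and desmosomal cadherins (Dsc2 and Cdh1) were higher, 2 of 21 processing genes were higher and 2 lower, and 1 of 3 Usher genes was higher.

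The unevenness of the control RISC libraries was seen in clustered protocadherins and in other members alike. Cdh23, Cdh13 and Pcdh8 were at 39.7, 21.8 and 24.8 CPM in control RISC library 2 and at 0 in libraries 1 and 3. The summed level of the alpha genes was 71.9, 98.1 and 0 CPM in control RISC libraries 1, 2 and 3, and 23.3, 36.4, 27.5 and 44.8 CPM in miR-17-5p RISC libraries 2, 4, 5 and 6. Beta genes summed to 94.1, 56.9 and 24.2 CPM in control and to 55.7, 28.1, 66.4 and 68.3 CPM with miR-17-5p. In the control group these sums came from few genes, since between 0 and 6 of 15 alpha genes and 1 to 7 of 11 beta genes had a count.

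Single clustered genes were likewise abundant in 1 control RISC library and at 0 in the other 2. Pcdha1 (24.8 CPM), Pcdha11 (26.7 CPM), Pcdhb6 (24.7 CPM) and Pcdhga1 (25.6 CPM) were so in library 2, and Pcdha6 (31.1 CPM) and Pcdhb21 (26.7 CPM) in library 1. In control mRNA libraries none of these 6 exceeded 6.05 CPM. Pcdhgc3 was at 27.2, 0.108 and 72.1 CPM in control RISC libraries and held 33.6%, 0.0722% and 49.1% of the gamma counts there. In miR-17-5p RISC libraries it was at 42.5, 25.8, 44.8 and 66.5 CPM, and its share was 22.7% to 31.2%, against 16.3% to 45.9% over the mRNA libraries.

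Genes of the alpha and gamma clusters share constant exons, and beta genes resemble each other closely, so their counts depend on how reads in shared sequence were assigned and are uncertain. The 39 clustered members include 25 with a place of their own in RefSeq's GRCr8 gene order, all on 1 chromosome, and 14 alpha names that RefSeq lists as older names of Pcdha4.

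Summed over all 65 members, RISC libraries were at 628 ± 116 CPM in control and 694 ± 84.2 CPM with miR-17-5p (SD, n = 3 and 4), above the 340 to 444 CPM of the mRNA libraries. Non-clustered protocadherins took 196 ± 64 and 160 ± 33.9 CPM of this, cadherins 191 ± 60.7 and 292 ± 50.2 CPM, and gamma genes 126 ± 38.8 and 154 ± 42.1 CPM. Cadherins were the family whose RISC ranges did not overlap between treatments, at 121 to 229 CPM in control and 234 to 354 CPM with miR-17-5p. Cdh3 alone was at 63.9 to 113 CPM of the treated sums and at most 0.108 CPM of the control ones.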

How the data were processed

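Counts per gene were made by the authors and deposited as 1 table per library. Reads were aligned to rat build rn5, and TopHat2 2.0.10, Bowtie2 and HTSeq are named, per the submitters' processing notes. Sequencing was single-end without strand information, and poly(A) selection is stated for mRNA libraries, per the labels' protocols. Alignments that were not unique (15.0% to 31.2%) and ambiguous ones (0.151% to 0.454%) stayed out of library sizes and tests, so near-identical, overlapping and antisense genes are uncertain.

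Groups came from sample titles. Tests used edgeR 4.0.16 in R 4.3.3 (TMM factors, filterByExpr, robust quasi-likelihood F-tests, two-sided, Benjamini-Hochberg adjusted p under 0.05 over all genes tested). A gene could pass the filter through the group where it is high, so tested members are not all members. Standard errors are the log2 fold change divided by the square root of F. DESeq2 1.42.0 gave alternatives. Ratios with 1 to 3 counts carry exact 95% counting intervals, and folds against 0 use a floor of 3 counts per library. Replicates differed by more than sampling noise (6.78 to 323 chi-square units per degree of freedom). The labels speak of biological replicates, but their numbering differs between titles and descriptions. The p-values therefore reflect the scatter of these libraries only, part of which may be technical. The test was tried on simulated data.

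Members and lists were chosen with earlier results of these data known. Set for naming were 23 members. They are those called in any comparison and the 8 with the largest mean CPM in control mRNA and in control RISC libraries. Added to these are the 6 with the smallest p in the mRNA and in the RISC comparison. The text does not print every library value for each of them, and Pcdhga7 is otherwise seen only in the figures. Pcdh7 in RISC and the genes named for overlap or uneven levels were chosen after their values were seen.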

Additional observations from a re-analysis of the deposited data

Results flagged for a closer look

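In groups of 4 or 5 libraries, 3 of 46 gene and group combinations had a library far from the others, where chance gives about 1 in 20. Pcdh7 was at 25.3 CPM in miR-17-5p mRNA library 2, with the next library at 9.08 CPM. Pcdhga10 was at 12.1 CPM in miR-17-5p mRNA library 1, with the next at 8.27 CPM. Pcdhb8 was at 3.46 CPM in miR-17-5p RISC library 5 and at 0 in the other 3.

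The effect of miR-17-5p differed between RISC and mRNA libraries for 7 members by edgeR's test of the difference. The fitted differences, RISC effect minus mRNA effect on the log2 scale, were 7.87 for Cdh3, 8.17 for Pcdhga10, 8.67 for Pcdhga9, 9.84 for Pcdh17, 7.46 for Pcdhb3, 8.12 for Pcdhga5 and 6.42 for Pcdh20. Each gene had 0 to 2 counts in the control RISC libraries, so these sizes depend on the prior count of the fit and are no bounds.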

How the results depend on the processing

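Of 55 log2 fold changes of single members recomputed under DESeq2 size factors, no filter, DESeq2's Wald test, a replicate block and each replicate left out, 3 changed sign under at least 1 setting, and all 3 were far from passing at first. Pcdhga9 in mRNA was -0.01, then 0.000191 with no filter, 0.33 with a replicate block and -0.39 to 0.83 with replicates left out. Cdh23 in RISC was -0.01, then -0.65 to 10.25 with replicates left out. Cdh11 in the difference was 0.39, then -0.074 to 1.13 with replicates left out. The cause was not tested. With no filter or DESeq2's test 2 members were lower in mRNA in place of 1, where 100 and 269 of all genes were in place of 85. DESeq2's test called 8 members higher in RISC in place of 1, 3 higher in control RISC against mRNA in place of 0, and 2 lower in miR-17-5p RISC against mRNA in place of 0. Over all genes these counts were 1147 in place of 32, 977 in place of 606 and 3001 in place of 2366. With no filter 11 members were lower in control RISC against mRNA in place of 6, where 2787 of all genes were in place of 2264. The median of the 58 members then tested was -0.11 in place of 0.63. DESeq2 size factors moved the median of all genes from 0.40 to 0.27 in the difference, from -0.69 to -0.87 in control cells and from -0.15 to -0.26 in miR-17-5p cells. With each replicate left out, members higher and lower numbered 0 to 3 and 0 to 2 in mRNA. Members higher numbered 0 to 7 in RISC and 7 to 12 in the difference. Members higher and lower numbered 0 to 2 and 0 to 9 in control RISC against mRNA, and 4 to 12 and 0 to 1 in miR-17-5p cells. The numbers called over all genes also moved between these fits in each comparison. In RISC and in control RISC against mRNA they fell to 0 in at least 1 fit. These ranges alone therefore do not set the members apart from all genes. Where a fit used both library types, both libraries of a number were left out together, and a group left with fewer libraries is assumed to vary like the others.

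Libraries of the same replicate number showed little shared deviation (correlations -0.186 to 0.0492), so the numbers are not taken to pair them. Between RISC and mRNA libraries of a treatment the correlations were -0.0151 to 0.0492. Scatter among the RISC libraries could hide a pairing, so this check cannot exclude one. With a replicate block 0 members were higher and 0 lower in mRNA by edgeR (adjusted p 0.907 for each of the 4 genes called without it, 1 residual degree of freedom). In the difference 1 was higher (Cdh3), and 0 were lower in control RISC against mRNA. Over all genes 0 were higher and 0 lower in mRNA, 30 were higher in the difference, and 167 were lower in control RISC against mRNA. With the block the members' median log2 fold change was -0.69 in mRNA and -3.41 in control RISC against mRNA, there with 7 of 36 above 0 and a median of -2.38 over all genes, so the direction of that median turned. No paired analysis was possible for RISC miR-17-5p against control because the groups share 1 number. In control RISC libraries 3 counts correspond to 0.167 to 0.478 scaled CPM, and in mRNA libraries to 0.189 to 1.07, so values below these cannot be told from 0.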
